A study of Arabidopsis thaliana with 18 samples.

Results

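Transcripts of eukaryotic initiation factor 3 (eIF3) were followed here in Arabidopsis seedlings that lack the ribosomal protein RPL24B. Genes for the subunits a, b, c, d, e, f, g, h, i and k were listed as 10 loci, and 4 of them had an array probe set that could be named from the tables used here, namely eIF3d (AT4G20980), eIF3g1 (AT3G11400), eIF3h (AT1G10840) and eIF3k (AT4G33250). The other 6 loci, for subunits a, b, c, e, f and i, were not analysed here. These 4 stand among 22746 probe sets, and they are not an even sample of the complex, because eIF3g1, eIF3h and eIF3k could be named only through the study's list of genes changed in another translation mutant, eif3h, on other arrays. A share of these 4 is therefore no estimate for the complex, and nothing is read from its excess over the share of all probe sets. The study, partly from these same arrays, also names eIF3g, eIF3i and eIF3k among the few initiation factors translationally stimulated in both rpl24b and eif3h. The direction of eIF3g1 and eIF3k below is therefore not an independent observation.

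Aerial parts of seedlings aged 10 to 12 days were compared between the rpl24b mutant (allele stv1-1, in the Ws ecotype) and wild type (WT). Both were raised on medium with 1% sucrose at 22 °C under days of 16 h and nights of 8 h. By the study's methods they were taken 6 h after lights on, while its discussion gives an earlier hour. The study's methods describe a deletion in the mutant that takes several genes beside RPL24B, together with a transgene for the small MYB protein CAPRICE at that locus. No ecotype is stated for WT in the labels. The methods place wild-type plants in Columbia-0, but for this mutant they speak only of the corresponding wild type, so the ecotype of WT is not certain. A possible difference of strain, the neighbouring deletion, the transgene and loss of RPL24B therefore cannot be told apart in any difference below. Each of 3 plant samples per genotype gave 1 array each of polysomal RNA (PL), of nonpolysomal RNA with monosomes (NP) and of total RNA (TC), so that 18 arrays fell into 6 groups of 3, and these numbers limit the precision. By the treatment notes in the labels the biological replicates came from different growth times and the mutant was raised beside WT, and samples of the same number are taken here as grown together, which the labels do not spell out.

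eIF3 is a multisubunit initiation factor. It binds the small ribosomal subunit, helps to assemble the preinitiation complex with the initiator tRNA, and links that complex to the mRNA. In plants the h subunit is known for its part in reinitiation after upstream open reading frames, a process in which RPL24 also takes part. Subunit d is known from human cells to bind the cap of some mRNAs, subunit g carries an RNA recognition motif, subunit h has an MPN domain, and subunit k is a small outer subunit that some eukaryotes lack.

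The array signals were log2 values made by RMA, and the translation state (TL) was log2 PL minus log2 NP of 1 plant sample, so that a higher TL means more of the transcript in polysomes. A TL of 0 depends on the common scaling of PL and NP arrays, and the percentile among all probe sets is therefore given beside it. Changes are rpl24b minus WT on the log2 scale, from limma over all probe sets. A probe set passed at an adjusted p (Benjamini-Hochberg) under 0.05, and the 2-fold minimum of the study's methods is counted beside that. Among the arrays the NP array of WT replicate 2 had a median signal of 4.65, against 4.90 to 5.07 in the other PL and NP arrays. RPL24B itself had TC signals of 3.79, 3.63 and 3.44 in rpl24b, against 9.98, 10.11 and 10.27 in WT. The green-tissue marker RCA, Rubisco activase, lay between 13.89 and 13.99 in TC, and the root hair marker EXPA7, an expansin, between 3.66 and 4.12, below the median of 5.38 over probe sets. Only these 2 of the 9 loci listed as tissue markers had a named probe set, and by limma 0 of the 2 passed in TC and 0 had an unadjusted p under 0.05. In NP RCA had a change of -0.42 ± 0.18 (SE, limma unadjusted p = 0.0427, adjusted p = 0.204). Its rpl24b samples lay below WT without overlap there, as in 10.1% of all probe sets. Its PL change was -0.07 ± 0.10 (adjusted p = 0.715) with overlap, and its TL change was 0.35 ± 0.19 (adjusted p = 0.497, percentile 92.3).

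All 4 subunit transcripts had a higher mean TL in rpl24b than in WT, by 0.44 to 0.63, and 0 of the 4 passed the test after adjustment. By limma all 4 had an unadjusted p under 0.05, where 5.08% of all probe sets were higher at that p. The median change of the 4 was 0.49, beside -0.06 over all probe sets. TL change passed in 0.897% of probe sets (0.607% with the 2-fold minimum), so passing was rare on these arrays. The TL change of RCA, no translation factor, had the same sign, and what it shares with the subunits was not tested.

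**Figure D1:**
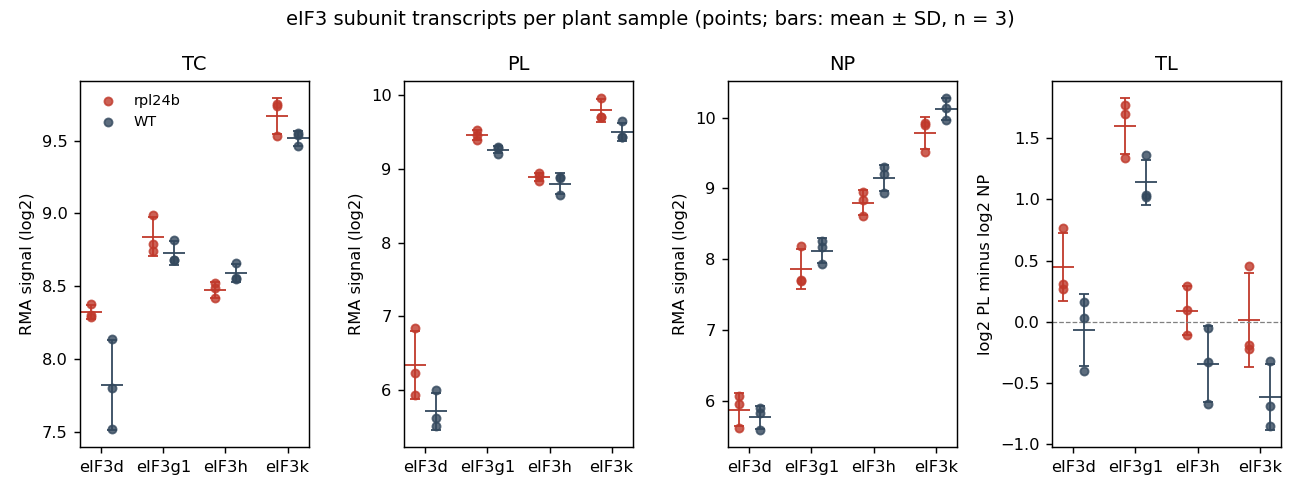
RMA signals (log2) in TC, PL and NP and the translation state (log2 PL minus log2 NP) of eIF3d, eIF3g1, eIF3h and eIF3k, with 1 point per plant sample, rpl24b left of WT, and the mean ± SD of 3 samples. In TL the rpl24b points of eIF3d and eIF3k lie above all WT points, and eIF3g1 stands far above the other subunits in both genotypes.

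eIF3k had the largest TL change of the 4. Its TL was -0.22, -0.19 and 0.46 in rpl24b, against -0.69, -0.85 and -0.32 in WT, and the groups did not overlap. The means were 0.01 ± 0.385 in rpl24b and -0.62 ± 0.27 in WT (SD, n = 3 each), and the change was 0.63 ± 0.22 (SE, 95% interval 0.15 to 1.12, limma adjusted p = 0.255). Across all probe sets 2.1% had a TL change at least as high. The rpl24b plants were above WT without overlap in 7.08% of probe sets.

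The fractions of eIF3k differed in opposite directions. Its PL signal was 9.71, 9.71 and 9.97 in rpl24b, against 9.44, 9.43 and 9.65 in WT, a change of 0.29 ± 0.12 (SE, adjusted p = 0.123). Its NP signal was 9.93, 9.90 and 9.52 in rpl24b, against 10.13, 10.28 and 9.96 in WT, a change of -0.34 ± 0.17 (SE, adjusted p = 0.267). The rpl24b samples lay above all WT samples in PL, as in 18.8% of all probe sets, and below them in NP, as in 10.1%, and neither change passed. In TC eIF3k had 9.75, 9.53 and 9.74 in rpl24b, against 9.55, 9.46 and 9.54 in WT, with overlapping groups and a change of 0.15 ± 0.10 (adjusted p = 0.356).

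For eIF3d the TL difference lay mostly in the polysomal signal. Its TL was 0.27, 0.31 and 0.77 in rpl24b, against -0.40, 0.03 and 0.16 in WT, again without overlap. The change was 0.52 ± 0.21 (SE, 95% interval 0.07 to 0.97, adjusted p = 0.321). In PL it had 6.23, 5.93 and 6.84 in rpl24b, against 5.50, 5.62 and 5.99 in WT. The PL groups overlapped, and the change was 0.63 ± 0.21 (SE, adjusted p = 0.0676). In NP it had 5.96, 5.62 and 6.07 in rpl24b, against 5.90, 5.59 and 5.83 in WT, a change of 0.11 ± 0.17 (adjusted p = 0.764). With each array centred on its median the NP change was -0.04, so that its direction is not settled.

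eIF3d was also the member with the largest difference in total RNA. Its TC signal was 8.30, 8.29 and 8.38 in rpl24b, against 7.52, 7.80 and 8.14 in WT, and every rpl24b sample lay above every WT sample. The change of 0.50 ± 0.15 (SE) had an adjusted p of 0.0525, just above the threshold. With the replicate number as a block adjusted p was 0.0193 in TC and 0.00829 in PL. Among leave-one-out fits, eIF3d passed in TC without WT replicate 3 (0.66, adjusted p = 0.0137) and in PL without rpl24b replicate 2 (0.83, adjusted p = 0.0261). In TC 16.3% of all probe sets passed, 8.4% upward, and in 18.5% the rpl24b samples lay above WT without overlap. Passing or lying apart is therefore common on these arrays, while the size of the eIF3d change was at percentile 93.1.

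eIF3g1 was the best loaded of the 4 subunits. Its TL was 1.77, 1.34 and 1.70 in rpl24b, against 1.04, 1.02 and 1.36 in WT, at percentiles 98.9 and 96.6 of all probe sets. Its TL differed from 0 in both genotypes (1.60 ± 0.13 in rpl24b, adjusted p = 1.8e-06, and 1.14 ± 0.13 in WT, adjusted p = 2.85e-05, SE). The TL change was 0.46 ± 0.19 (SE, 95% interval 0.06 to 0.87, adjusted p = 0.325), with groups that overlapped in the samples at 1.34 and 1.36.

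The PL signal of eIF3g1 was 9.46, 9.53 and 9.40 in rpl24b, against 9.30, 9.20 and 9.29 in WT, a change of 0.20 ± 0.10 (SE, adjusted p = 0.199). The NP signal was 7.69, 8.19 and 7.71 in rpl24b, against 8.26, 8.18 and 7.93 in WT, a change of -0.26 ± 0.18 (adjusted p = 0.445). The PL groups did not overlap while the NP groups did, since rpl24b replicate 2 stood with the WT samples. In TC eIF3g1 had 8.74, 8.79 and 8.99 in rpl24b, against 8.68, 8.68 and 8.82 in WT, with overlap and a change of 0.11 ± 0.10 (adjusted p = 0.535).

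eIF3h, whose own mutant is not part of these arrays, changed least in TL. It had 0.10, -0.11 and 0.29 in rpl24b, against -0.33, -0.67 and -0.05 in WT, with overlap between rpl24b replicate 2 and WT replicate 3. The change was 0.44 ± 0.20 (SE, 95% interval 0.003 to 0.87, adjusted p = 0.396). The NP signals differed more than the PL signals. In NP eIF3h had 8.84, 8.95 and 8.61 in rpl24b, against 9.20, 9.30 and 8.94 in WT, a change of -0.35 ± 0.16 (SE, adjusted p = 0.244). In PL it had 8.94, 8.84 and 8.90 in rpl24b, against 8.88, 8.64 and 8.89 in WT, a change of 0.09 ± 0.11 (adjusted p = 0.646).

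Total RNA of eIF3h had the other sign from the remaining members. Its TC signal was 8.42, 8.49 and 8.52 in rpl24b, against 8.66, 8.55 and 8.56 in WT, so that every rpl24b sample lay below every WT sample by a narrow margin. The change of -0.12 ± 0.09 (SE) had an adjusted p of 0.451, and the rpl24b samples lay below WT without overlap in 15.7% of all probe sets.

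The third samples of both genotypes had a high TL. For all 4 members WT replicate 3 had the highest TL of the WT samples, and for eIF3d, eIF3h and eIF3k rpl24b replicate 3 had the highest of the rpl24b samples. The difference between samples of the same number was 0.46, 0.65 and 0.78 for eIF3k, 0.67, 0.28 and 0.61 for eIF3d, 0.73, 0.32 and 0.34 for eIF3g1 and 0.42, 0.56 and 0.33 for eIF3h. TL was thus higher in rpl24b in 3 of 3 numbered pairs for each of the 4, as in 13.1% of all probe sets, though over all probe sets the TL deviations of same-numbered samples correlated only at -0.05 to 0.03. With the replicate number as a block the adjusted p of the 4 lay between 0.173 for eIF3k and 0.357 for eIF3h.

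**Figure D2:**
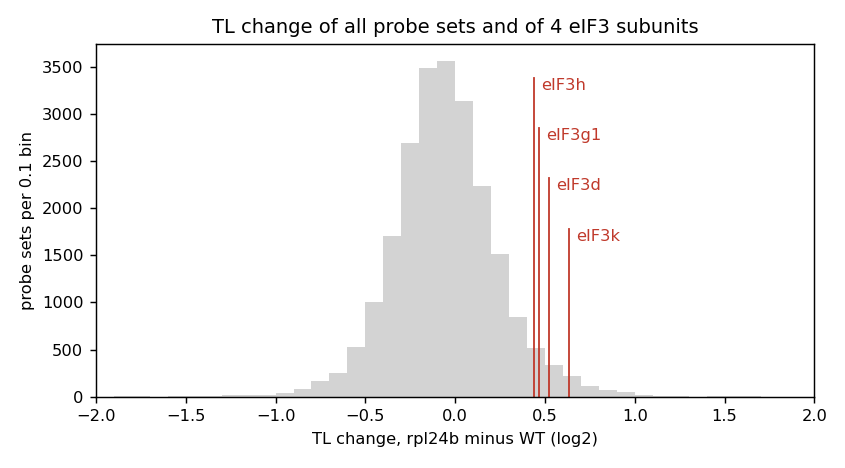
Number of probe sets per 0.1 of TL change (rpl24b minus WT, log2), for all probe sets between -2 and 2, with red lines at the values of eIF3h (0.44), eIF3g1 (0.46), eIF3d (0.52) and eIF3k (0.63). The 4 lines lie in the upper tail, where 2.1% to 5.3% of probe sets are at least as high as each.

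The mean TL of the 4 subunits spanned 1.59 in rpl24b and 1.76 in WT, and without eIF3g1 the other 3 spanned 0.44 in rpl24b and 0.55 in WT. Their order was eIF3g1, eIF3d, eIF3h and eIF3k in both. eIF3g1 stood apart from the next subunit, eIF3d, by 1.15 in rpl24b and 1.21 in WT without overlap of the samples. The other neighbours in this order overlapped in both genotypes. eIF3k was at percentile 57.5 of all probe sets in rpl24b and 9.0 in WT, eIF3h at 65.7 and 17.2, and eIF3d at 83.4 and 37.7.

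Against a TL of 0, 2 of 4 members passed in each genotype, beside 37.1% of all probe sets in rpl24b and 34.3% in WT. With the 2-fold minimum 1 of 4 passed in each, eIF3g1, beside 10.1% of all probe sets in rpl24b and 8.64% in WT. In rpl24b these were eIF3g1 and eIF3d (0.45 ± 0.15, adjusted p = 0.0281), both toward polysomes, and eIF3d no longer passed without rpl24b replicate 2 (adjusted p = 0.0593) or rpl24b replicate 3 (0.224). In WT they were eIF3g1, toward polysomes, and eIF3k, toward the nonpolysomal fraction (-0.62 ± 0.16, adjusted p = 0.00814). eIF3h had 0.09 ± 0.14 in rpl24b (adjusted p = 0.676) and -0.35 ± 0.14 in WT (adjusted p = 0.0792). In WT eIF3h passed after quantile normalization (-0.50, adjusted p = 0.00972) and without dim probe sets (adjusted p = 0.0411).

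Over the 6 plant samples the TL of any pair of members correlated at a Pearson r of 0.72 (eIF3d with eIF3h) to 0.92 (eIF3h with eIF3k). In TC the r of pairs ran from -0.81 (eIF3d with eIF3h) to 0.72 (eIF3d with eIF3g1). These are descriptions over 6 samples that share their arrays, their replicate numbers and the difference between genotypes. The probe sets closest to the mean profile of the 4 members over 18 arrays, each centred within TC and within PL with NP and taken from those at or above the median signal, were those of RPS2C (AT2G41840, r = 0.932), RPL7B (AT2G01250, 0.914), RPS9B (AT5G15200, 0.904), AT5G04600 (0.899) and RPS8A (AT5G20290, 0.893). Because PL and NP were centred together, the difference between PL and NP that a probe set has in both genotypes is part of its profile. An r over the 18 arrays is therefore no measure of covariation between samples or genotypes alone. The members themselves had no common profile over the 18 arrays, with an r of pairs between -0.39 (eIF3g1 with eIF3k) and 0.73 (eIF3h with eIF3k). The mean profile followed eIF3g1 (0.75) and eIF3d (0.66) more than eIF3k (0.24) and eIF3h (0.22).

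Other eIF3 genes were described from a list of 11 loci for second copies and further subunits, of which 5 had a named probe set. eIF3c2 (AT3G22860), a second gene for the scaffold subunit c, rose in TC, PL and NP. Its TC signal was 5.44, 5.50 and 6.10 in rpl24b, against 3.22, 3.14 and 3.21 in WT, a change of 2.49 ± 0.17 (SE, adjusted p = 4.23e-05). The study lists this gene for its change in these samples, so its change is no independent evidence about eIF3. The WT signals were dim, below the median of 5.38 over probe sets, and no detection call was used here, so they may be background. The changes of this gene in TC, PL and NP are then lower bounds, while its TL change is not bounded in this way.

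Both fractions of eIF3c2 rose as well. PL was 4.98, 5.12 and 5.21 in rpl24b, against 3.29, 3.39 and 3.30 in WT (1.78 ± 0.10, adjusted p = 3.14e-06), and NP was 4.30, 4.31 and 4.75 in rpl24b, against 3.31, 3.23 and 3.14 in WT (1.23 ± 0.16, adjusted p = 0.00164). Its TL was 0.68, 0.81 and 0.47 in rpl24b, against -0.02, 0.16 and 0.16 in WT, without overlap. The change of 0.55 ± 0.17 (SE, 95% interval 0.18 to 0.93) did not pass (adjusted p = 0.185), and its WT values are ratios of signals that may be background.

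The other 4 loci of that list, AT5G44320, AT1G66070, AT3G02200 and AT5G15610, carry no name in the tables used here. AT3G02200 had the lowest TL of the 9 eIF3 genes, with -0.99, -0.85 and -0.01 in rpl24b, against -1.24, -1.67 and -0.76 in WT (change 0.60 ± 0.28 SE, adjusted p = 0.407). AT5G15610 and AT5G44320 also lay toward the nonpolysomal fraction, with mean TL of -0.41 and -0.41 in rpl24b and -0.79 and -0.58 in WT. All 3 passed against 0 in both genotypes, as did 37.1% of all probe sets in rpl24b and 34.3% in WT. Their TL lay at percentiles 10.8 to 17.3 in rpl24b and 2.3 to 9.9 in WT. In rpl24b, though, each call was lost without rpl24b replicate 1 or rpl24b replicate 2 (adjusted p 0.081 to 0.328) and with arrays centred on their median (0.058 to 0.119). The change between genotypes was 0.38 ± 0.20 for AT5G15610 (SE, adjusted p = 0.468) and 0.17 ± 0.17 for AT5G44320 (adjusted p = 0.731).

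AT1G66070 was the exception in direction. Its TL was 1.33, 0.93 and 0.79 in rpl24b, against 1.26, 1.28 and 1.19 in WT, with overlap and a change of -0.22 ± 0.18 (adjusted p = 0.667). Its NP signal rose to 5.78, 5.83 and 5.94 in rpl24b, against 5.42, 5.06 and 5.23 in WT (0.61 ± 0.15, adjusted p = 0.0330). That call was lost with the replicate number as a block (adjusted p = 0.0655), with arrays centred on their median (0.46, adjusted p = 0.0843), with trend and robust in eBayes (adjusted p = 0.0544) and in 5 of 6 leave-one-out fits, all but that without WT replicate 1 (adjusted p 0.0634 to 0.112 in the 5). With that block its PL change (0.39, adjusted p = 0.0261) and that of AT3G02200 (0.34, adjusted p = 0.0489) passed, against 0.0766 and 0.115 without it.

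Over the 8 eIF3 genes other than eIF3c2 the TL was higher in rpl24b in 7 and lower in 1, with a median change of 0.45. By limma 0 passed in TL while 4, the subunits d, g1, h and k, had an unadjusted p under 0.05. This tally still holds eIF3g1, eIF3h and eIF3k, which were named only through the list of genes changed in eif3h. Of the genes named without that list, only eIF3d had an unadjusted p under 0.05 in TL. Nothing is therefore read from the tally about the complex. PL was higher in 8 of 8 (median 0.28), with 0 passing and 4 at an unadjusted p under 0.05, where 18.7% of all probe sets passed and 10.8% rose. NP was higher in 3 and lower in 5 (median -0.26), with 1 passing upward, where 8.6% passed and 5.21% rose. TC was higher in 6 of 8 (median 0.16), with 0 passing and 3 at an unadjusted p under 0.05, where 8.4% rose. The medians over all probe sets were 0 in PL, 0.08 in NP and 0.03 in TC. By limma 6942 of all 22746 probe sets had an unadjusted p under 0.05 in PL, in either direction, and 6706 in TC. In TL change 2839 did, so the unadjusted counts of the eIF3 genes are to be read beside these and not beside the adjusted shares.

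**Figure D3:**
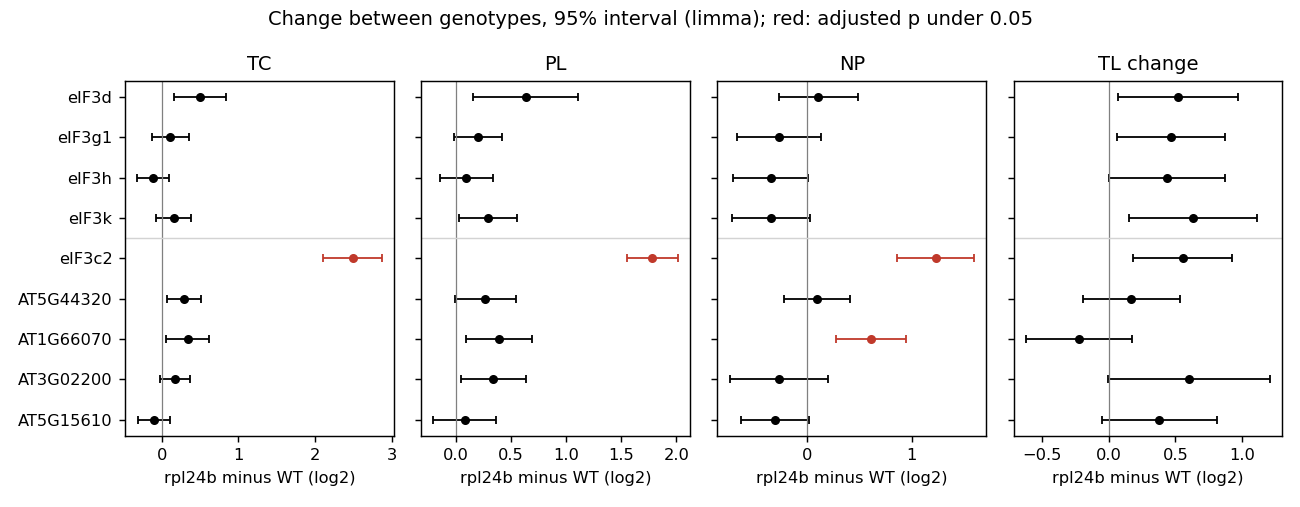
Change (rpl24b minus WT, log2) of 9 eIF3 genes in TC, PL, NP and TL with its 95% interval from limma, the 4 subunits d, g1, h and k above the grey line, and red where adjusted p was under 0.05. eIF3c2 stands apart in TC, PL and NP, the NP change of AT1G66070 is the other red point, and 8 of 9 points in TL lie right of 0.

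Initiation factors that work beside eIF3 on the small subunit were described as well. Of 15 listed loci for eIF1, eIF1A, eIF2, eIF5 and eIF4G, 10 had a named probe set. In TC 4 of the 10 rose and 0 fell, with a median of 0.36, where 8.4% of all probe sets rose. In PL 6 rose and 0 fell, with a median of 0.53, where 10.8% rose. In TL their median change was 0.08, with 5 higher and 5 lower, and by limma 0 passed and 0 had an unadjusted p under 0.05. The TC and PL counts include AT2G18720, which the study lists for its change in these samples. The list was also chosen with earlier results of these data known, so nothing is read from an excess over the shares.

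The transcript of AT2G04520 rose in TC by 0.75 ± 0.09 (SE, adjusted p = 0.000909), in PL by 0.79 ± 0.16 (adjusted p = 0.00717) and in NP by 0.85 ± 0.22 (adjusted p = 0.0442), and its NP call was lost whichever of the 6 samples was left out (adjusted p 0.0504 to 0.145). AT2G40290 rose in TC by 0.67 ± 0.10 (adjusted p = 0.00299) and in PL by 0.77 ± 0.13 (adjusted p = 0.00265). Their TL changes were -0.06 ± 0.26 and 0.39 ± 0.18. AT1G36730 rose in TC by 0.48 ± 0.11 (adjusted p = 0.0219, lost without rpl24b replicate 3, WT replicate 2 or WT replicate 3, at 0.0574 to 0.0871) and in PL by 0.58 ± 0.11 (adjusted p = 0.0048).

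In PL AT4G27130 rose by 0.75 ± 0.11 (SE, adjusted p = 0.00153) and AT1G77840 by 0.49 ± 0.10 (adjusted p = 0.0079). In TC AT4G27130 had a change of 0.36 (adjusted p = 0.127, and 0.0474 with the replicate number as a block). eIF2 GAMMA3 (AT2G18720), a gene for the GTP-binding subunit of eIF2, rose at least 2-fold, by 1.16 ± 0.15 in TC (adjusted p = 0.00144) and 1.34 ± 0.14 in PL (adjusted p = 0.000164). It was dim, with TC signals of 4.66, 4.46 and 5.03 in rpl24b, against 3.44, 3.66 and 3.57 in WT. The study lists this gene too for its change in these samples. Whether the TL changes of eIF3 subunits differ from those of these factors was not tested. These factors were named without the list of genes changed in eif3h, unlike eIF3g1, eIF3h and eIF3k.

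Complexes that share the PCI and MPN architecture of eIF3 served as a further comparison. Of 12 listed genes of the proteasome lid 5 had a named probe set, and 0 of 5 passed in TC, PL, NP or TL change by limma, with 0, 1, 0 and 1 at an unadjusted p under 0.05. Their mean TL was above 0 in both genotypes, with medians of 0.83 in rpl24b and 0.58 in WT. Against 0, 5 passed in rpl24b and 4 in WT, beside 37.1% and 34.3% of all probe sets. In WT AT5G45620 did not pass (0.23 ± 0.14 SE, adjusted p = 0.244). The TL was higher in rpl24b in 5 of 5, as in 9129 of all 22746 probe sets, with a median change of 0.25. The COP9 signalosome was measured through CSN5B alone of 10 listed genes, with a TL change of -0.13 ± 0.23 (adjusted p = 0.862). Of 4 listed genes of reinitiation beside eIF3h, 0 had a named probe set.

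**Figure D4:**
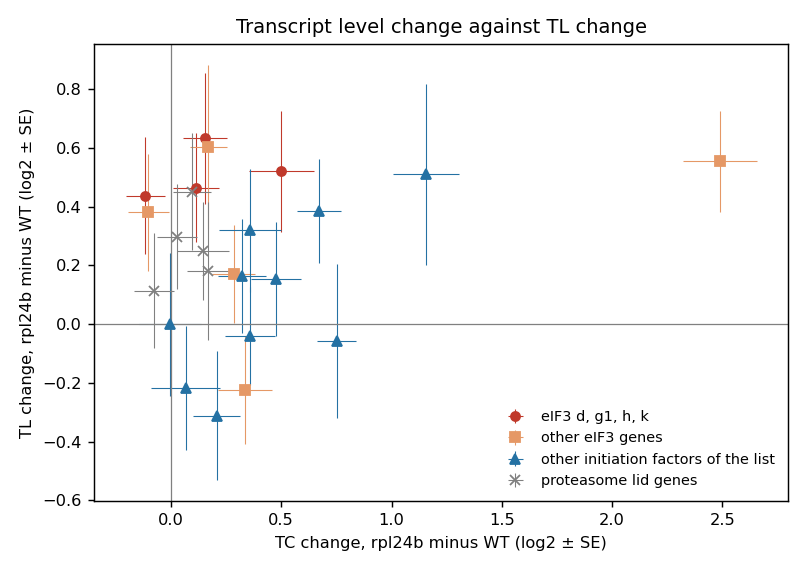
Change in total RNA (x axis) and in TL (y axis), both rpl24b minus WT on the log2 scale with their SE, for eIF3 subunits d, g1, h and k (red), other eIF3 genes (orange), initiation factors eIF1, eIF1A, eIF2 and eIF5 (blue) and proteasome lid genes (grey). The red points lie between 0.44 and 0.63 in TL with TC changes of -0.12 to 0.50, while the blue points reach 1.16 in TC and lie between -0.31 and 0.51 in TL. The red points other than eIF3d were named only through the study's list of genes changed in eif3h. The blue and grey points were named without it, so the groups were not chosen alike.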

How the data were processed

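Signals came from Affymetrix ATH1 arrays. The authors extracted them with R/Bioconductor and the affy package, compared MAS5, RMA and gcRMA, and deposited RMA signals per array on the log2 scale, with a translation state (log2 PL minus log2 NP) per plant sample. Versions of these tools are not given in the sources used here. TC arrays had medians of 5.34 to 5.41, apart from those of PL and NP, as if normalized separately, so no signal was set across TC and the fractions, save in 1 closing observation relative to all probe sets. RMA can compress differences of dim probe sets, and common scaling removes any overall shift in loading. Deposited and recomputed TL differed by at most 0.001. Arrays of 1 group correlated at 0.982 to 0.996.

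Probe sets were named through the platform table and RefSeq locus tags (TAIR10.1) and, where these gave none, through probe set and locus pairs in the study's tables, and 8185 stayed unnamed. The fits used the R package limma (version 3.58.1, under R 4.3.3), whose lmFit and eBayes functions set 3 samples of each genotype against each other. Adjustment was by Benjamini and Hochberg over 22746 probe sets, without the prefilters that the study's methods apply first, and the script was tested on simulated data. TL of each genotype was set against 0 in the same fit. The members and all lists (other eIF3 genes, initiation factors, reinitiation, proteasome lid, COP9 signalosome, tissue markers) were chosen with earlier results of these data known. The text names all 4 members, the other eIF3 genes, those of the other lists that passed between genotypes, and the 5 nearest profiles. The loci of the lists came from general knowledge of Arabidopsis factors.

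Replicate numbers were taken to pair the samples, since the treatment notes in the labels give different growth times for the replicates and a mutant raised beside WT, without saying that the number marks the time. Deviations of same-numbered samples correlated at 0.14 to 0.39 in TC, 0.05 to 0.28 in PL, -0.19 to 0.06 in NP and -0.05 to 0.03 in TL. For differently numbered samples of the genotypes the range was -0.36 to -0.03 in TC and -0.24 to 0.12 in PL. It was -0.14 to 0.16 in NP and -0.03 to 0.08 in TL. Deviations sum to 0 in each genotype, so the ranges are not independent. The study's methods have no such term, so the replicate block was an alternative, beside other scalings, variance models, filters, call rules and leaving out each plant sample. No sequences were used.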

Additional observations from a re-analysis of the deposited data

How the results depend on the processing

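With 3 samples per genotype, the 95% intervals of the subunits' TL changes began at 0.003 (eIF3h) to 0.149 (eIF3k). The call counts of the 4 eIF3 subunits were 0 in TC, PL, NP and TL change, and they moved as follows. In TC the count was 1 (eIF3d) with the replicate block, with trend and robust in eBayes (adjusted p = 0.0311) and without dim probe sets (adjusted p = 0.0388), and 0 to 1 when a sample was left out. In PL it was 1 with the replicate block (eIF3d) and 0 to 1 when a sample was left out. In NP it stayed at 0 throughout. In TL change it was 1 (eIF3k) by the ad hoc criteria of the study's methods with a 1.5-fold minimum, by which 4.12% of all probe sets were called, and 0 under the other alternatives. Against a TL of 0 the count of 2 in each genotype was 1 with the 2-fold minimum, and with a sample left out it was 1 to 2 in rpl24b and 2 to 3 in WT. In WT it was also 3 after quantile normalization and without dim probe sets, with eIF3h added. Beyond those named beside their results, the replicate block changed no call between genotypes of the eIF3 genes or of the listed initiation factors that passed. The other genes named in the text were not examined under it.

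Centring arrays on their medians shifted the median over probe sets by 0.11 in TL change and by -0.15 in NP. With it the TL changes of the 4 subunits were 0.55 to 0.75, and after quantile normalization 0.39 to 0.59. Signs turned for small values. With centring these were the NP changes of eIF3d (-0.041) and AT5G44320 (-0.058) and the TL change of AT2G04520 (0.057). The TL of rpl24b for eIF3h and eIF3k was -0.10 and -0.27 after quantile normalization, and with 1 sample left out it ran from -0.007 to 0.191 and from -0.208 to 0.133, lowest without rpl24b replicate 3. With 1 sample left out the TL of WT for eIF3d ran from -0.184 to 0.096, that of AT2G18720 from -0.60 to 0.009, the PL change of AT5G15610 from -0.054 to 0.164, and the TL changes of AT2G04520 and AT1G77840 from -0.224 to 0.266 and from -0.014 to 0.282. The TL changes of eIF3d, eIF3g1, eIF3h and eIF3k then lay between 0.36 and 0.64, 0.38 and 0.60, 0.28 and 0.59, and 0.41 and 0.78.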

Other observations

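The eIF3d transcript gave far lower signals in both gradient fractions than in total RNA. The mean of its PL and NP signals minus its TC signal, relative to the median of that difference over all probe sets, was -1.96, -2.24 and -1.61 in rpl24b, and -1.54, -1.88 and -1.98 in WT. These means, -1.93 in rpl24b and -1.80 in WT, lie at percentiles 0.3 and 0.5 of all probe sets, and the groups overlap. The other 3 subunits were not low in the fractions, at 0.65 and 0.67 for eIF3h, 0.40 and 0.59 for eIF3k and 0.10 and 0.25 for eIF3g1 in rpl24b and in WT. AT5G44320 had -0.46 in rpl24b and -0.34 in WT, and 3 of the 5 proteasome lid genes (AT1G75990, AT5G45620 and AT5G23540) had -1.20 to -0.98 in rpl24b and -1.13 to -1.03 in WT. By their medians TC arrays appear to have been scaled apart from PL and NP arrays, so these values hold only relative to other probe sets. This comparison was chosen after the values were seen.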
